A study of Mus musculus with 12 samples.

Results

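The tripartite motif (TRIM) genes encode a large family of ubiquitin ligases. Members were taken by symbol, as every gene named Trim with a number and an optional letter from a to e that had at least 10 counts in at least 3 of the 12 libraries. Of 24421 genes in the count tables, 66 carried such a symbol and 42 met the count rule. A list of TRIM genes known to respond to interferon held 13 of these 42, and the remaining 29 are called other members. This list was drawn up with earlier results of these data known. All 42 passed the count filter of the statistical test, and 39 had at least 10 counts in every library. Of the 24 TRIM genes outside the rule, 11 had 0 counts in every library and 13 had between 1 and 99 counts in all, among them the listed genes Trim38 (9 counts in all libraries together) and Trim69 (19 counts).

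A typical TRIM protein carries a RING domain that recruits ubiquitin-conjugating enzymes, 1 or more B-box domains and a coiled coil through which the proteins pair, followed by a variable end that binds the substrate. In the most numerous subgroup that end is a PRY/SPRY domain. Many TRIM genes are themselves switched on by interferon through transcription factors that bind the interferon-stimulated response element (ISRE). In macrophages several of these proteins tune the sensors and adaptors that drive interferon and NF-kappaB signalling.

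RNA was measured by polyA-enriched sequencing in bone marrow-derived macrophages of C57BL/6J mice, all male and 8 weeks old. Such cells are differentiated in culture from marrow precursors. The 4 groups of 3 libraries were resting (M0) cells with a control siRNA (siControl), resting cells with an siRNA against Ehd1 (siEhd1), and LPS-treated (M1) cells with either siRNA. Ehd1 encodes an ATPase of endocytic recycling, and lipopolysaccharide (LPS) is a bacterial cell wall component that activates Toll-like receptor 4. Every library came from cells given an siRNA. The labels state no deletion or transgene, and they do not say whether the replicates came from separate animals or cultures, so p-values cover the spread among these 12 libraries only.

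Library totals lay between 18572725 and 22545272 counts, and the 42 members together took 0.214 to 0.243% of each. Levels are given as CPM, each gene's counts relative to the library's total scaled by TMM factors. Means are given ± SD over the 3 libraries of a group (n = 3). Ehd1 stood at 53.2 ± 1.18 CPM in resting siControl and 31.5 ± 2.35 CPM in resting siEhd1 libraries, and at 619.7 ± 64.5 and 302 ± 18.2 CPM after LPS. All 10 macrophage markers on the list reached at least 5 CPM in every group. Summed markers of neutrophils, dendritic cells, lymphocytes and erythroid or mast cells stayed at or below 4.94 CPM in every library, with Cd3e, Ncr1 and Hbb-bs at 0 in all 4 groups. The 7 stromal and endothelial markers summed to 0.809 to 4.12 CPM in resting and 9.67 to 21.5 CPM in LPS-treated libraries, with Dcn and Pecam1 alone above 5 CPM in any group.

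The promoters of 7 interferon-inducible members held the ISRE core, and these stretches are shown because the members that carry them were all lower with siEhd1 in resting cells. The core was searched as GAAA, NN and GAAA in a row, where N is any base, on both strands in the RefSeq promoter windows of build GRCm38.p6, each 300 bases long with 250 before the annotated start site and 50 from it. Each line below is 50 bases of the sense strand, 5′ to 3′, and capitals mark the core (TTTC at both ends of the capitals where the match is on the opposite strand):
Trim21, chr7:102565437-102565486, minus strand: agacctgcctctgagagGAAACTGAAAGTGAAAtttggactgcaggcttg
Trim34a, chr7:104244447-104244496, plus strand: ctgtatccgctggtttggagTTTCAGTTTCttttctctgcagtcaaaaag
Trim12a, chr7:104315456-104315505, minus strand: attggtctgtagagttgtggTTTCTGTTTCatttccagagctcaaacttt
Trim12c, chr7:104353349-104353398, minus strand: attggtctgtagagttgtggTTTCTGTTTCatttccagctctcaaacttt
Trim30a, chr7:104465200-104465249, minus strand: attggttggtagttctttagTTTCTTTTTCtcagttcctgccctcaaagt
Trim30d, chr7:104507861-104507910, minus strand: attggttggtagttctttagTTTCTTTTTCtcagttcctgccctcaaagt
Trim26, chr17:36836969-36837018, plus strand: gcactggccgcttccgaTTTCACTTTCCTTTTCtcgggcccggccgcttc

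The Trim30a and Trim30d stretches were identical over all 50 bases, and those of Trim12a and Trim12c over 48 of 50. A second annotated start of Trim30a (chr7:104446094-104446143, minus strand, not shown) also held the core, in a stretch with 38 of 50 bases identical to that of Trim30d. Trim21 and Trim26 each held 2 overlapping cores. A promoter was in the table for 31 of the 42 members, 12 of them interferon-inducible. Of the 13 windows of interferon-inducible members 8 (61.5%) held the core, against 1 of 30 windows of other members (3.33%, at 1 of the starts of Trim2) and 3.44% of all 32851 promoters in the table. On a list of 39 interferon-stimulated genes outside the family, 43.2% of 37 windows held it. The GAS core, searched as TTCNNNGAA, matched 0 of 13 and 2 of 30 member windows against 8.30% of all promoters, and a kappa-B core, GGGA, N and TTTCC in a row, matched none of the members' windows against 0.411% of all. A match describes the letters only.

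**Figure D1:**
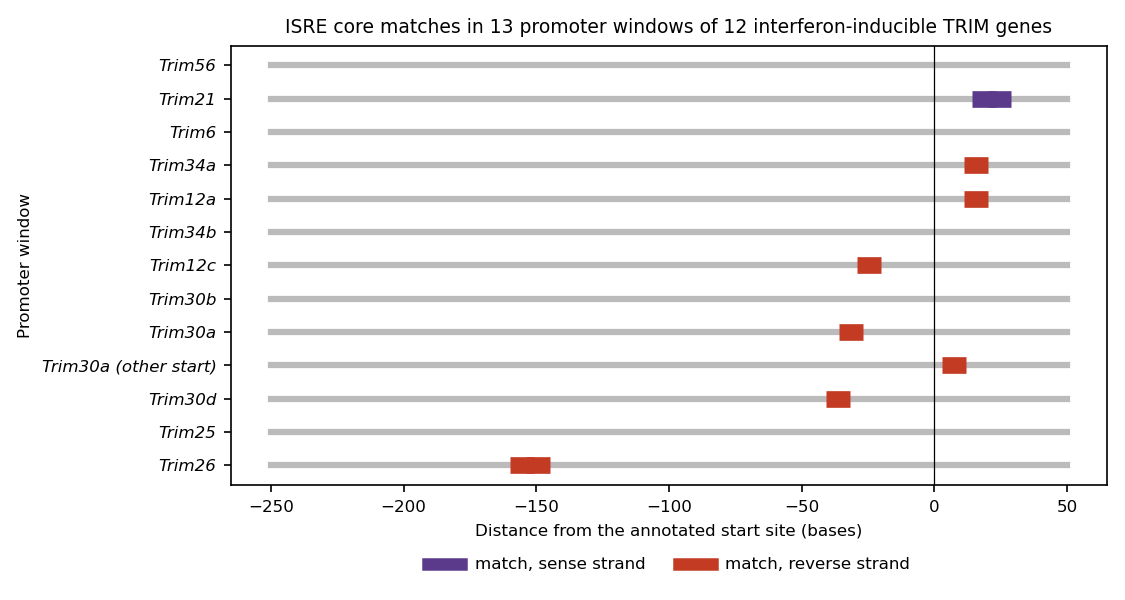
Position of the ISRE core in the 13 promoter windows of 12 interferon-inducible TRIM genes. The x axis is the distance from the annotated start site in bases, grey bars are the 300-base windows, and coloured boxes are matches on the sense or the reverse strand; 8 windows of 7 genes hold a match, and all but those of Trim26 lie within 50 bases of the start.

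Per kilobase of exon, Trim25 had the highest level of all members in resting siControl cells, at 98.8 ± 2.40 CPM per kilobase. Trim25 is a ligase of the RNA sensor RIG-I. It was followed by Trim30a at 39.2 ± 1.14, Trim8 at 31.0 ± 0.922, Trim35 at 29.6 ± 0.780 and Trim14 at 28.0 ± 1.25 CPM per kilobase. The libraries of Trim8 and Trim35 overlapped, and the other neighbours among these 5 did not. In LPS-treated siControl cells Trim30a came first at 100.1 ± 4.76 and Trim25 followed at 85.6 ± 3.68 CPM per kilobase, with no overlap. Next came Trim30d at 44.8 ± 5.46, Trim8 at 41.8 ± 0.857 and Trim14 at 31.2 ± 1.07 CPM per kilobase, where Trim30d and Trim8 overlapped. Both the first and the third place after LPS were thus held by genes of the Trim30 group.

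In resting macrophages the interferon-inducible members were lower with siEhd1 than with siControl, while most other members did not pass the test. Of the 13 interferon-inducible members 10 fell, 0 rose and 3 were not called (edgeR quasi-likelihood test, adjusted p below 0.05), where 14.2% of the 12164 genes tested were called lower. Their log2 fold changes ran from -1.19 to -0.12 with a median of -0.38, all 13 below 0, against a median of -0.02 over all genes tested. Of the 29 other members 3 rose, where 14.0% of all genes tested were called higher, 1 fell and 25 were not called, with a median of -0.03. Summed over the 13 interferon-inducible members, the level was 1223 ± 20.8 CPM with siControl and 1011 ± 33.8 CPM in the siEhd1 group. The 29 other members summed to 985 ± 8.31 and 991 ± 12.2 CPM. Of the 10 macrophage markers 5 were also lower with siEhd1 at rest and 1 was higher. They summed to 24197 to 24873 CPM with siControl and 20231 to 21665 CPM with siEhd1, without overlap. Lyz2 made up the largest part of this sum, with means of 14232 CPM with siControl and 11312 CPM with siEhd1. By log2 fold change 7 of the 10 markers were below 0 and 3 above (Adgre1, Mrc1 and Spi1). The part of these markers in the decreases of TRIM genes was not tested. In bulk RNA, fewer cells that express a gene and less of its RNA per cell cannot be told apart.

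The largest called decreases were those of Trim30b and Trim30d, and Trim30a of the same group fell as well. Trim30a, which is known to restrain Toll-like receptor signalling by removing TAB2 and TAB3, had 157, 159.7 and 166 CPM in the siControl libraries and 114, 122 and 129 CPM in the siEhd1 libraries. It thus fell to 75.5% of control in siEhd1 cells, with no overlap between groups (log2 fold change -0.41, SE 0.06, adjusted p = 1.4e-05). Trim30d, its neighbour on chromosome 7, had 54.8, 53.2 and 55.6 CPM with siControl and 33.7, 33.9 and 37.3 CPM with siEhd1. Every siEhd1 library was below every siControl library, at 64.2% of control in the fit (-0.64, SE 0.08, adjusted p = 4.3e-06). Trim30b was scarce, at 32, 31 and 26 counts with siControl and 14, 11 and 15 counts with siEhd1. Its libraries did not overlap either, and its level was 43.9% of control (-1.19, SE 0.24, adjusted p = 9.4e-04).

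Trim12a and Trim12c, mouse relatives of the retrovirus restriction factor TRIM5, were both lower. Trim12a had 32.2, 32.6 and 29.1 CPM with siControl and 23.6, 23.1 and 25.5 CPM with siEhd1 (-0.38, SE 0.09, adjusted p = 0.0041). Trim12c had 65.1, 60.6 and 58.5 CPM with siControl and 43.7, 41.6 and 51.1 CPM with siEhd1 (-0.43, SE 0.08, adjusted p = 9.6e-04). In both genes the siEhd1 libraries lay below all siControl libraries, and 1 siEhd1 library of Trim12c (replicate 3) stood nearer to the controls than the other two. Trim34a had 50.5, 44.4 and 49.9 CPM against 32.5, 36.1 and 37.1 CPM, again without overlap (-0.45, SE 0.07, adjusted p = 7.7e-05).

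The remaining decreases were smaller, at 83.9 to 87.1% of control. Trim21 encodes the cytosolic antibody receptor that sends antibody-coated virus particles to the proteasome. Its level was 49.4, 44.1 and 46.1 CPM with siControl and 38.0, 40.2 and 40.0 CPM with siEhd1 (-0.24, SE 0.06, adjusted p = 0.0026). Trim25 had 566, 556 and 583 CPM against 481, 501 and 503 CPM (-0.20, SE 0.05, adjusted p = 0.0054). The groups did not overlap in either gene. Trim26, a ligase encoded in the histocompatibility region of chromosome 17, had 86.5, 89.8 and 84.0 CPM against 74.4, 72.1 and 72.0 CPM (-0.25, SE 0.05, adjusted p = 6.1e-04). Trim14, an adaptor of the mitochondrial antiviral protein MAVS that lacks a RING domain, had 124, 115 and 126 CPM against 96.6, 107 and 109 CPM (-0.23, SE 0.06, adjusted p = 0.0059). Its groups did not overlap, but without siEhd1 replicate 1 its adjusted p was 0.052.

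The 3 interferon-inducible members that were not called were Trim56, Trim6 and Trim34b. Trim56, a ligase linked to cytosolic nucleic acid sensing, had 37.9, 38.8 and 36.8 CPM with siControl and 33.2, 37.5 and 33.9 CPM with siEhd1 (-0.12, SE 0.06, adjusted p = 0.19). One siEhd1 library lay among the controls. Trim6, known to make free ubiquitin chains that activate the kinase IKK-epsilon, had 36 to 44 counts per library in resting cells (-0.15, SE 0.19, adjusted p = 0.62). Trim34b had 37 to 42 counts with siControl and 23 to 32 with siEhd1, which did not overlap, yet the test did not call it (-0.50, SE 0.25, adjusted p = 0.15).

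**Figure D2:**
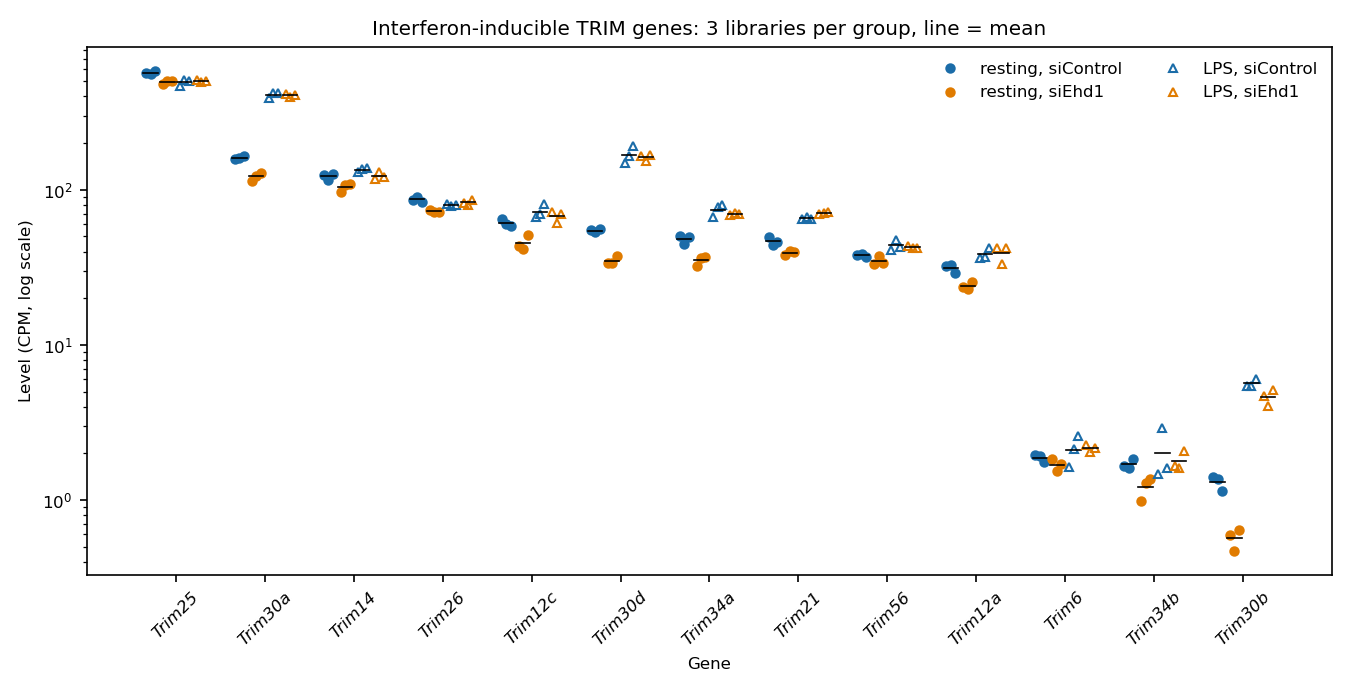
Level of the 13 interferon-inducible TRIM genes in each library, in CPM on a log scale, with genes on the x axis in order of their mean level and 1 point per library, 3 per group; black lines are group means. The resting siEhd1 libraries lie lowest for the Trim30 genes, Trim34a, Trim12a and Trim12c. After LPS the groups of the same genes overlap except for Trim30b, where siEhd1 lies lower. Trim25 stays between 469 and 583 CPM in all 12 libraries.

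Among the other members, Trim36, Trim37 and Trim59 rose with siEhd1 in resting cells and Trim68 fell. Trim36, which binds microtubules, had 15.0, 15.6 and 15.6 CPM with siControl and 23.3, 22.2 and 21.4 CPM with siEhd1 (0.54, SE 0.07, adjusted p = 1.7e-05). Trim37, a ligase that limits centriole duplication, had 20.3, 20.3 and 20.2 CPM against 27.1, 26.3 and 24.4 CPM (0.36, SE 0.07, adjusted p = 3.9e-04). Trim59 is a membrane-anchored family member. It had 8.76, 9.38 and 8.95 CPM against 15.4, 14.8 and 12.3 CPM, the largest of these increases (0.65, SE 0.10, adjusted p = 3.6e-05). In all 3 genes every siEhd1 library was above every siControl library. A list of 24 cell cycle genes moved in the same libraries, with 24 higher, where 14.0% of all genes tested were called higher. Its summed level was 513 to 708 CPM with siControl and 1222 to 1464 CPM with siEhd1. The part of this list in these changes was not tested.

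Trim68, a PRY/SPRY ligase, had 8.32, 8.11 and 7.94 CPM with siControl and 7.09, 4.74 and 6.30 CPM with siEhd1 (-0.43, SE 0.14, adjusted p = 0.023). Its siEhd1 libraries were spread but lay below the controls. The call was lost without siControl replicate 1, siControl replicate 2 or siEhd1 replicate 2, with an adjusted p of up to 0.14, so it was not stable to leaving out 1 library. All 11 members that fell are on a list of 26 members of the PRY/SPRY-type subgroup, of which 1 rose (Trim36). Over all genes tested 14.2% were called lower and 14.0% higher. That list holds every interferon-inducible member but Trim56, and among its remaining members Trim68 alone fell. The domain itself was not checked, and the coding sequences of Trim12a (894 bases) and Trim30b (612 bases) are shorter than those of Trim12c and Trim30d (1494 bases each). None of the 4 members with a PHD finger and bromodomain (Trim24, Trim28, Trim33 and Trim66) and none of the 3 with NHL repeats (Trim2, Trim3 and Trim32) was called. Over all genes tested 28.2% were called in either direction. Of the 9 members on none of these lists 2 rose (Trim37 and Trim59) and 0 fell.

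**Figure D3:**
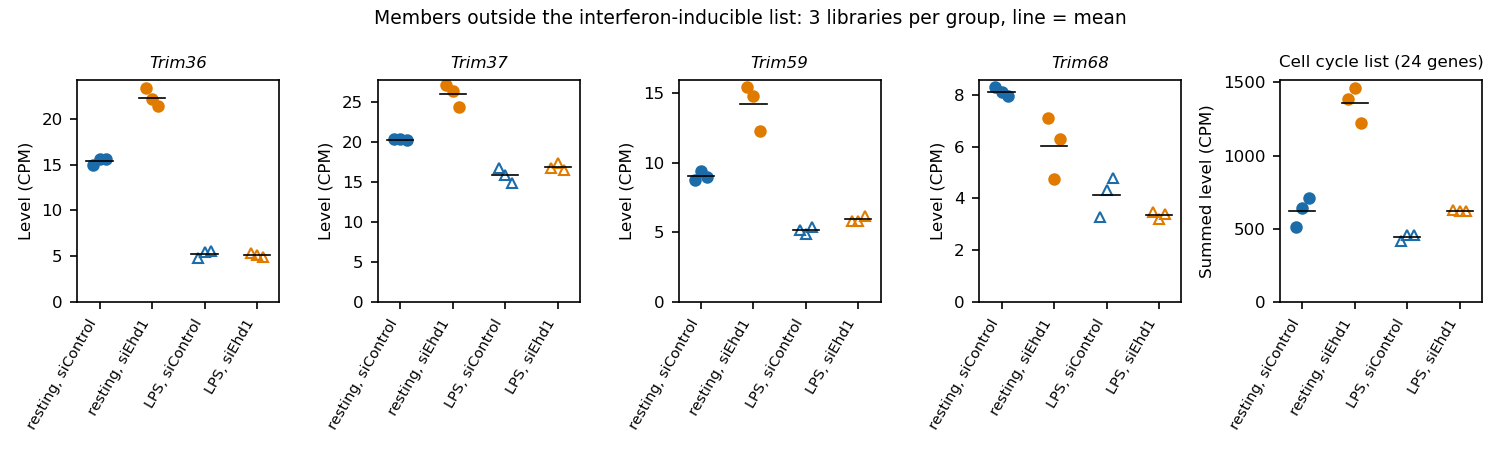
Level per library of Trim36, Trim37, Trim59 and Trim68, and the summed level of 24 cell cycle genes, in CPM on axes that start at 0, for the 4 groups of 3 libraries; lines are group means. Resting siEhd1 libraries are highest in the panels of Trim36, Trim37, Trim59 and the cell cycle list, and below the resting siControl libraries in that of Trim68.

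After LPS none of the 42 members was called between siEhd1 and siControl, where 8.54% of all genes tested were called in either direction (4.44% higher and 4.10% lower). At an unadjusted p under 0.05 the edgeR test gave 6 members (Trim14, Trim21, Trim30b, Trim33, Trim39 and Trim45), and DESeq2 and limma-voom also called none. The medians were -0.04 for the interferon-inducible and -0.01 for the other members. Trim30a had 389, 423 and 423 CPM with siControl and 417, 398 and 408 CPM with siEhd1, which overlapped (-0.01, SE 0.05, adjusted p = 0.92). Trim30d had 149.7, 165 and 190.4 CPM against 166, 153 and 167 CPM, with the siEhd1 libraries inside the control range (-0.05, SE 0.07, adjusted p = 0.72). For Trim21 the groups did not overlap and siEhd1 was the higher, at 65.3, 66.7 and 64.5 CPM against 69.6, 70.9 and 72.0 CPM (0.11, SE 0.05, adjusted p = 0.22). Trim30b did not overlap either but was lower with siEhd1, at 5.47, 5.45 and 6.04 CPM against 4.72, 4.02 and 5.11 CPM (-0.30, SE 0.14, adjusted p = 0.2). A missed threshold does not show equal levels, and differences of about 0.1 on the log2 scale lie within a few SE here.

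Largest of the uncalled differences with over 5 CPM was that of Trim39, a PRY/SPRY ligase. It had 14.1, 14.2 and 14.7 CPM with siControl and 12.7, 8.96 and 12.4 CPM with siEhd1 after LPS (-0.34, SE 0.11, adjusted p = 0.072), and its resting log2 fold change was -0.28 (SE 0.11, adjusted p = 0.055). The resting difference was called with no low-count filter, with the replicate block, with a fit of the compared groups only and without siControl replicate 2 (adjusted p down to 0.034). In both states its siEhd1 libraries lay below all its siControl libraries. Without a filter on low counts the difference after LPS had an adjusted p of 0.04. Summed over the 13 interferon-inducible members the level after LPS was 1592 ± 77.7 CPM with siControl and 1578 ± 29.4 CPM with siEhd1.

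**Figure D4:**
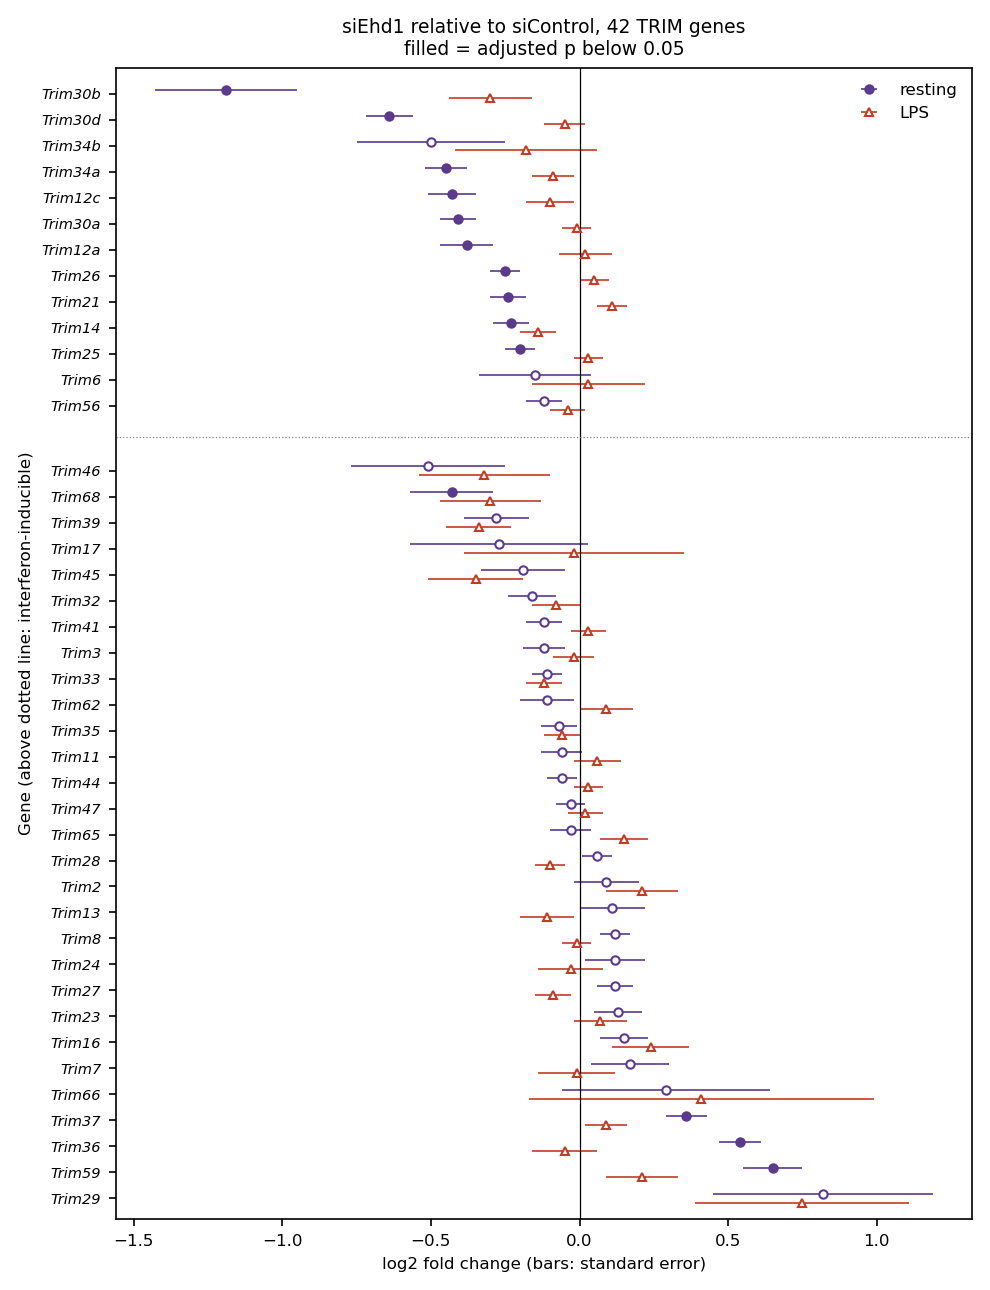
Log2 fold change of siEhd1 over siControl for each of the 42 TRIM genes in resting (circles) and LPS-treated (triangles) cells, with standard errors as bars and filled symbols for adjusted p below 0.05; interferon-inducible genes stand above the dotted line. The resting values of all 13 interferon-inducible genes lie below 0, from -1.19 to -0.12, and none of the values after LPS is filled.

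The siEhd1 effect itself differed between resting and LPS-treated cells for 6 members by the interaction test, where 6.04% of all genes tested were called, with 5 interferon-inducible members higher (3.12% of all genes tested were called higher) and Trim36 lower (2.93% lower). The difference, as the log2 effect after LPS minus the log2 effect at rest, was 0.59 for Trim30d (SE 0.10, adjusted p = 0.0016) and 0.39 for Trim30a (SE 0.08, adjusted p = 0.0035). It was 0.35 for Trim21 (SE 0.08, adjusted p = 0.0074) and 0.31 for Trim26 (SE 0.07, adjusted p = 0.01). For Trim34a it was 0.36 (SE 0.10, adjusted p = 0.035), a call lost under the replicate block and without any 1 of 8 libraries. Those were resting siControl 1 and 3, resting siEhd1 1 and 2, LPS siControl 1, and LPS siEhd1 1, 2 and 3. Over all 18 alternatives, kept and lost, the adjusted p of Trim34a ran from 0.014 to 0.12. All 13 interferon-inducible members had a difference above 0, with a median of 0.33 against 0.00 over all genes tested.

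The difference was 0.89 for Trim30b (SE 0.28, adjusted p = 0.065), 0.40 for Trim12a (SE 0.13, adjusted p = 0.07) and 0.23 for Trim25 (SE 0.07, adjusted p = 0.061), none of which was called. DESeq2 and limma-voom called Trim25, with an adjusted p down to 0.0081. Trim12a was called by DESeq2, with no low-count filter, and without LPS siControl replicate 3 or LPS siEhd1 replicate 2 (down to 0.0066), and Trim30b without LPS siEhd1 replicate 2 (0.049). Trim12c (0.33, adjusted p = 0.12) was called without resting siEhd1 replicate 3 or LPS siControl replicate 3 (down to 0.023), and Trim59 (-0.44, adjusted p = 0.098) without resting siEhd1 replicate 3 (0.032). Trim36 showed the opposite sign, -0.58 (SE 0.13, adjusted p = 0.0088). After LPS its level was 4.83, 5.45 and 5.56 CPM with siControl and 5.31, 5.13 and 4.88 CPM with siEhd1, which overlapped. In the same interaction test 11 of the 24 cell cycle genes were lower and 0 higher, where 2.93% of all genes tested were called lower and 3.12% higher. All 24 were below 0, with a median of -0.79. After LPS 17 of the 24 were higher with siEhd1, where 4.44% of all genes tested were called higher. The 24 summed to 621 to 629 CPM with siEhd1 against 417 to 459 CPM with siControl. The part of these genes was not tested.

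LPS treatment raised most interferon-inducible members in siControl cells. Of the 13, 9 rose, 2 fell and 2 were not called, where 34.8% of all genes tested were called higher and 34.0% lower (68.8% in either direction), and their median was 0.24 against -0.01 over all genes tested. Resting and LPS-treated libraries were deposited in separate tables, so a difference in handling cannot be told apart from LPS. The 3 genes of the Trim30 group rose most. Trim30b went from 1.30 ± 0.142 to 5.66 ± 0.333 CPM (2.11, SE 0.16, adjusted p = 2.8e-10), Trim30d from 54.5 ± 1.21 to 168 ± 20.5 CPM (1.63, SE 0.07, adjusted p = 1.2e-13) and Trim30a from 161 ± 4.69 to 411 ± 19.6 CPM (1.35, SE 0.05, adjusted p = 7.6e-15).

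Trim34a, Trim21 and Trim12a followed. Trim34a rose from 48.3 ± 3.35 to 74.6 ± 6.89 CPM (0.63, SE 0.07), Trim21 from 46.5 ± 2.66 to 65.5 ± 1.10 CPM (0.49, SE 0.05) and Trim12a from 31.3 ± 1.88 to 38.6 ± 3.26 CPM (0.30, SE 0.09). Trim12c (0.24, SE 0.08), Trim56 (0.21, SE 0.06) and Trim14 (0.15, SE 0.06) rose by less, and each of these calls was lost without 1 library. Those were siControl replicates 2 and 3 at rest and 3 after LPS for Trim12c (adjusted p up to 0.1), siControl replicate 2 after LPS for Trim56 (0.057), and siControl replicate 2 at rest and 2 and 3 after LPS for Trim14 (up to 0.12).

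Trim25 went against the group and fell with LPS in siControl cells. It had 469, 510.0 and 499 CPM after LPS, all below its 3 resting siControl libraries (-0.21, SE 0.05, adjusted p = 0.0012). Trim26 had 81.4, 78.7 and 79.6 CPM after LPS (-0.12, SE 0.05, adjusted p = 0.037), a call lost under 7 of its alternatives with an adjusted p of up to 0.15. They were no filter, the replicate block, a fit of the compared groups only, and leaving out siControl replicate 1 or 2 at rest or 2 or 3 after LPS. In siEhd1 cells 10 of the 13 rose with LPS and 0 fell, where 32.9% of all genes tested were called higher and 34.0% lower (67.0% in either direction), with a median of 0.57. Trim30b (3.00, SE 0.20), Trim30d (2.21, SE 0.08) and Trim30a (1.75, SE 0.06) led again, Trim26 rose (0.19, SE 0.05, adjusted p = 0.0022), and Trim25 was not called (0.02, SE 0.05, adjusted p = 0.69). The siEhd1 effects and the LPS effects share the same resting libraries, so their values for a gene are not independent of each other.

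**Figure D5:**
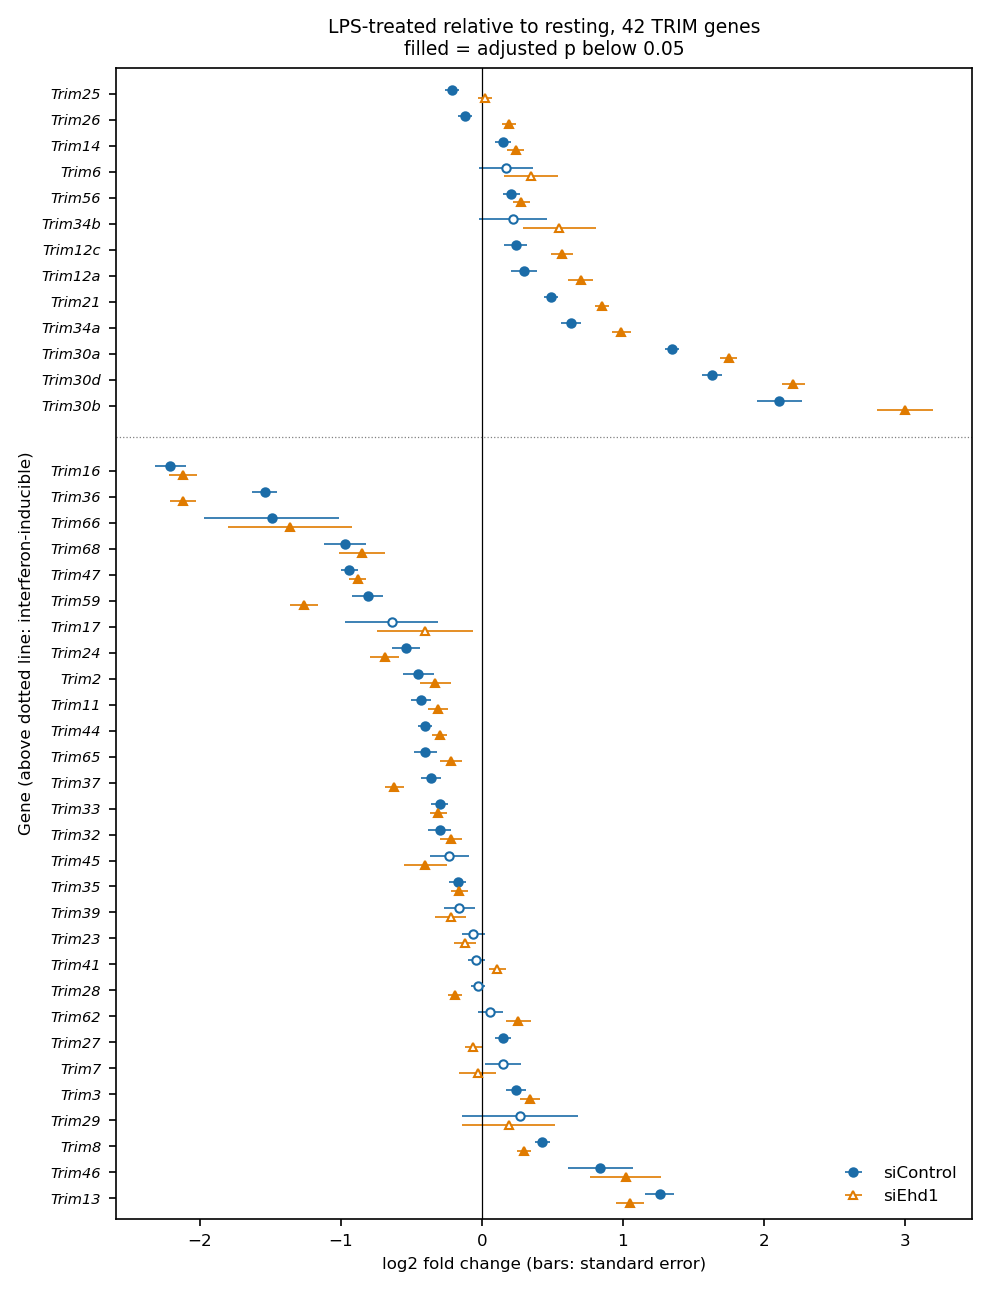
Log2 fold change of LPS-treated over resting cells for each of the 42 TRIM genes with siControl (circles) and siEhd1 (triangles), with standard errors as bars and filled symbols for adjusted p below 0.05; interferon-inducible genes stand above the dotted line. The Trim30 genes lie farthest to the right, up to 2.11 with siControl and 3.00 with siEhd1, and Trim16 lies farthest to the left with siControl at -2.21, while with siEhd1 Trim16 and Trim36 both lie at -2.12.

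Most of the other members were called with LPS, as were most genes tested. In siControl cells 5 of 29 rose, 15 fell and 9 were not called, with a median of -0.30, where 34.8% of all genes tested were called higher and 34.0% lower. In siEhd1 cells 5 rose, 17 fell and 7 were not called, with a median of -0.22, where 32.9% of all genes tested were called higher and 34.0% lower. The share called in either direction was near that over all genes tested (68.8% with siControl and 67.0% with siEhd1). Their summed level was 895 ± 3.71 CPM with siControl and 880.1 ± 7.47 CPM with siEhd1 after LPS, both below the resting sums.

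Trim13 and Trim46 rose most among these. Trim13, a ligase of the endoplasmic reticulum, had 4.27, 4.21 and 4.43 CPM at rest and 10.9, 10.4 and 9.61 CPM after LPS (1.26, SE 0.10, adjusted p = 8.5e-10). Trim46, which bundles microtubules in neurons, had 27 to 44 counts at rest and 48 to 64 counts after LPS (0.84, SE 0.23, adjusted p = 0.0026). Trim8, a ligase that promotes NF-kappaB signalling, had 116, 111 and 118 CPM at rest and 152, 158 and 155 CPM after LPS (0.43, SE 0.05, adjusted p = 1.4e-07). None of these 3 overlapped between states. Smaller increases were those of Trim3 (0.24, SE 0.07, adjusted p = 0.0073; 0.06 without siControl replicate 3 at rest) and Trim27 (0.15, SE 0.06, adjusted p = 0.032), and the Trim27 call was lost with DESeq2, with a fit of the compared groups only and without siControl replicate 2 at rest or 1 or 3 after LPS (adjusted p up to 0.15).

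Trim16 fell most. This galectin-binding protein, which acts in the clearance of damaged lysosomes, had 23.3, 23.4 and 21.1 CPM at rest and 5.03, 4.76 and 4.90 CPM after LPS (-2.21, SE 0.11, adjusted p = 1.2e-13). Trim36 fell to 34.4% of its resting level in siControl cells (-1.54, SE 0.09, adjusted p = 2.9e-12). Trim68 (-0.97, SE 0.15), Trim47 (-0.94, SE 0.06), Trim59 (-0.81, SE 0.11) and Trim24 (-0.54, SE 0.10) fell by less, and their LPS-treated libraries were all below the resting ones. Trim47 went from 57.8 ± 1.13 to 30.2 ± 1.44 CPM and Trim24 from 15.0 ± 1.85 to 10.3 ± 1.42 CPM.

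Trim24, Trim28, Trim33 and Trim66 form the chromatin-bound group with a PHD finger and bromodomain, of which Trim28 is the corepressor of KRAB zinc finger proteins. With siControl 3 of the 4 fell with LPS and Trim28 was not called, and with siEhd1 all 4 fell, where 34.0% of all genes tested were called lower with either siRNA. Trim33 went from 47.9 ± 1.10 to 39.0 ± 1.54 CPM in siControl cells (-0.30, SE 0.06, adjusted p = 7.6e-05), while Trim28 stood at 115 ± 3.44 and 112 ± 5.46 CPM. Trim66 was near the detection limit, with 2 to 17 counts per library, and its call was lost with siControl without replicate 1 at rest or 2 after LPS (adjusted p up to 0.06), and with siEhd1 without replicate 1 after LPS (0.065).

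Of the 13 interferon-inducible members 8 lie in 1 cluster on chromosome 7 (GRCm38, 104218793 to 104507849), a span of 289057 bases in which all 10 protein-coding genes are TRIM genes. From low to high coordinate the members are Trim6, Trim34a, Trim12a, Trim34b, Trim12c, Trim30b, Trim30a and Trim30d. In this cluster 6 of 8 fell with siEhd1 at rest and outside it 4 of 5, where 14.2% of all genes tested were called lower. With LPS 6 of 8 rose in siControl cells and outside the cluster 3 of 5, where 34.8% of all genes tested were called higher. Trim21 lies on the same chromosome outside the cluster (102557921 to 102565486, minus strand).

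The copies in the cluster are close in sequence, which limits the counts. Coding sequences were 98.8% identical between Trim34a and Trim34b, 96.3% between Trim12a and Trim12c and 90.2% between Trim30a and Trim30d. Of all 50-base windows of their transcripts, 59.0% of Trim34b, 41.3% of Trim34a, 32.7% of Trim12c, 31.2% of Trim12a, 15.4% of Trim30d and 6.53% of Trim30a also occur in another gene. Trim5 shared 20.1% of the Trim12a and 24.5% of the Trim12c windows, and Trim30c was among the genes that shared windows with Trim30d. Neither Trim5 nor Trim30c was among the counted genes. Whether their reads were counted in Trim12a, Trim12c or Trim30d was not tested. The sources used here do not state how reads matching more than 1 gene were counted, so the split of counts between copies is uncertain. The same holds for strand, and 38.0% of the exon length of Trim14 and 23.5% of that of Trim34a overlap antisense genes.

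The promoter windows and the expression values can be set side by side. Of the interferon-inducible members, 7 held an ISRE core in the window (Trim12a, Trim12c, Trim21, Trim26, Trim30a, Trim30d and Trim34a). All 7 were among the 10 that fell with siEhd1 at rest. Over all genes tested 14.2% were called lower there. Trim2, an other member with the core at 1 of its starts, was not called at rest (0.09, SE 0.11, adjusted p = 0.56). Of the 5 interferon-inducible members with a window and no core, Trim25 and Trim30b fell and Trim6, Trim34b and Trim56 were not called. The window of Trim30b (104358597 to 104358896) lies inside the gene as bounded by GENCODE (104355382 to 104369884, minus strand). The GENCODE start of Trim30b was thus not searched. Trim14 had no window in the table. All 5 interferon-inducible members called in the interaction test were carriers, where 3.12% of all genes tested were called higher. That test uses the same resting libraries, so it is not a separate observation. With LPS 6 of the 7 interferon-inducible carriers rose in siControl cells and Trim26 fell, where 34.8% of all genes tested were called higher and 34.0% lower. Trim2 fell with LPS in siControl cells as well (-0.45, SE 0.11, adjusted p = 0.0015).

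Other genes of the interferon pathway moved at rest in the same libraries. On the list of 39 interferon-stimulated genes outside the family, 35 fell and 1 rose with siEhd1, where 14.2% of all genes tested were called lower and 14.0% higher. Their median was -0.61, and their summed level was 3806 to 4037 CPM with siControl and 2357 to 2785 CPM with siEhd1. Of 17 interferon receptor and signalling genes tested, 10 fell and 0 rose, against the same background. They included the transcription factor genes Stat2 (202 to 133 CPM, -0.60, SE 0.07, adjusted p = 1.1e-06), Irf9 (89.6 to 75.1 CPM, -0.25, SE 0.05, adjusted p = 5.5e-04) and Irf7 (326 to 177 CPM, -0.88, SE 0.07, adjusted p = 1.3e-08). The receptor genes Ifnar1 (0.03, SE 0.05, adjusted p = 0.68) and Ifnar2 (0.01, SE 0.06, adjusted p = 0.9) were not called. Ifnb1, which encodes interferon beta, had group means of 0 to 0.359 CPM and was not tested.

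Several TRIM proteins act on nucleic acid sensors, and 6 of 20 tested genes on a list of sensors and adaptors linked to TRIM proteins fell at rest and 0 rose, where 14.2% of all genes tested were called lower. Ddx58, which encodes the TRIM25 substrate RIG-I, went from 125 to 94.9 CPM (-0.40, SE 0.06, adjusted p = 8.9e-05). Ifih1, whose product MDA5 is bound by TRIM65, went from 72.9 to 52.7 CPM (-0.47, SE 0.06, adjusted p = 4.5e-06). Dhx58 (-0.55, SE 0.07, adjusted p = 3.1e-06) and Zbp1 (-1.12, SE 0.08, adjusted p = 1.6e-08) fell as well. Mavs, the adaptor partner of TRIM14, was not called (-0.09, SE 0.06, adjusted p = 0.34), nor was Tab2, a target of TRIM30a (-0.11, SE 0.06, adjusted p = 0.2).

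After LPS, where 8.54% of all genes tested were called in either direction, the same lists held the following calls. Among the 39 interferon-stimulated genes 2 rose and 2 fell with siEhd1, with a median of 0.03. Among the signalling genes 0 rose and 2 fell, Jak2 (363 to 263 CPM, -0.46, SE 0.06, adjusted p = 1.7e-05) and Socs1 (23.8 to 18.9 CPM, -0.33, SE 0.09, adjusted p = 0.021). Of the sensor list Nlrp3 alone fell (-0.30, SE 0.07, adjusted p = 0.011). In the interaction test 28 of the 39 interferon-stimulated genes were higher and 0 lower, where 3.12% of all genes tested were called higher and 2.93% lower. Both Stat2 (0.64, SE 0.09, adjusted p = 2.4e-04) and Irf7 (0.81, SE 0.09, adjusted p = 1.7e-05) were higher. The interaction test shares its resting libraries with the comparison at rest, so these calls are not independent of the decreases there.

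Of 7 listed genes of the family under other names, 4 were tested as well. Pml, the organiser of nuclear bodies, fell with siEhd1 at rest from 62.4 to 52.0 CPM (-0.26, SE 0.08, adjusted p = 0.015) and was not called after LPS (0.02, SE 0.07, adjusted p = 0.93). Mefv, which encodes the inflammasome protein pyrin, fell in both states, from 10.6 to 8.50 CPM at rest (-0.32, SE 0.10, adjusted p = 0.025) and from 147 to 118 CPM after LPS (-0.32, SE 0.07, adjusted p = 0.0053). Mid1 and Rnf135 were called in neither state. Over all genes tested 14.2% were called lower with siEhd1 at rest and 4.10% after LPS. All 4 rose with LPS in siControl cells, where 34.8% of all genes tested were called higher. Mefv rose by the largest amount (3.79, SE 0.08, adjusted p = 1.1e-18).

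The 7-base sequence GCCTTGT was counted in 3′ untranslated regions because it is frequent among genes that were lower with siEhd1 in these data. At rest 28.6% of all tested genes called lower and 9.07% of those called higher carried it, and after LPS 50.5% and 10.7%. It was carried by 10 of the 42 members (23.8%), against 14.7% of 11243 tested genes with a searched region. Among interferon-inducible members Trim25 and Trim12c carried it, 2 of 13 (15.4%). The carriers made up 3 of the 11 members that fell at rest (Trim25, Trim12c and Trim68), 1 of the 3 that rose (Trim59) and 6 of the 28 that were not called. Among the 6 was Trim39. Of the 11 that fell, 8 thus lacked the sequence, and its part in the decrease of the 3 carriers was not tested.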

How the data were processed

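The authors deposited unnormalized counts for each gene symbol, resting and LPS-treated libraries apart, in 2 tables. The submitters' processing notes name the build mm10 and, as tools, STAR 2.7.6a, featureCounts 2.20.0, FastQC 0.10.1, Trim Galore 0.6.3, cutadapt, R 4.4.2 and DESeq2 1.46.0. Not given in the sources used here were annotation, strandedness, multi-mapping, LPS dose and time, and siRNA sequences. The counts were tested with edgeR 4.0.16 in R 4.3.3 (filterByExpr with group, TMM factors, robust quasi-likelihood fit). The fit had 1 mean per group over all 12 libraries and 8 residual degrees of freedom, with a common biological coefficient of variation of 0.0588. Benjamini-Hochberg adjustment ran over all 12164 genes tested, of 17270 with at least 1 count, with a threshold of 0.05. SE was taken as the size of the log2 fold change over the square root of F.

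Levels per kilobase, coordinates and sequence identity used GENCODE vM21 (GRCm38), which may differ from the authors' annotation, and promoters came from the RefSeq table of GRCm38.p6. Named were all interferon-inducible members, called other members by smallest p or largest LPS change, every member called in the interaction test, the 5 highest levels per siControl group, and called genes of the other lists. Trim2, Trim39, Trim45, Trim33, Trim28, Trim66, Mid1, Rnf135, Lyz2, Adgre1, Mrc1, Spi1 and the uncalled pathway genes were named after their values were seen. The members and lists were chosen with earlier results of these data known. No 2 libraries of a group agreed within counting error (chi-square over its degrees of freedom, 3.00 to 23.6). Deviations of same-numbered siEhd1 libraries at rest and after LPS had correlations of 0.11, 0.36 and 0.17. Resting replicate 1 correlated about as well with replicate 3 after LPS (0.12), so a pairing by number is not settled, and the labels state none. Alternatives were DESeq2 1.42.0, limma-voom (limma 3.58.1), RLE scaling, other filters, a fit of the compared groups only, a replicate block and leaving out each library. The fit was tested on simulated data.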

Additional observations from a re-analysis of the deposited data

Results flagged for a closer look

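The siEhd1 effect on 6 members differed between resting and LPS-treated cells by the interaction test of edgeR, and the values are the log2 effect after LPS minus that at rest. They were 0.59 for Trim30d, 0.39 for Trim30a, 0.36 for Trim34a, 0.35 for Trim21, 0.31 for Trim26 and -0.58 for Trim36. In the first 5 the resting level was lower with siEhd1 and the level after LPS was not called. In Trim36 the resting level was higher with siEhd1.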

How the results depend on the processing

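Of 280 recomputed counts of members per class and direction, 266 stayed within 1.5 times the reported count. The count of other members lower with siEhd1 at rest, reported as 1, was 2 with no low-count filter, 2 with the replicate block and 2 with a fit of the compared groups only, and 0 to 2 without 1 library. After LPS the count of other members lower, reported as 0, was 1 with no low-count filter. In the interaction test the count of other members lower, reported as 1, was 1 to 2 without 1 library. The count of interferon-inducible members lower with LPS in siControl cells, reported as 2, was 1 with no low-count filter, 1 with the replicate block, 1 with a fit of the compared groups only and 1 to 2 without 1 library.

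Of 1820 recomputed values of named members, 1750 kept direction and side of the threshold, 33 lost and 13 gained a call, and 24 changed sign, all of them uncalled and all on leaving out 1 library. For siEhd1 after LPS the leave-one-out ranges were -0.00 to 0.06 for Trim25, -0.09 to 0.02 for Trim56, -0.13 to 0.20 for Trim6, -0.04 to 0.13 for Trim12a, -0.36 to 0.19 for Trim34b, -0.05 to 0.01 for Trim30a, -0.13 to 0.05 for Trim30d, -0.04 to 0.01 for Trim8, -0.07 to 0.01 for Trim3, -0.01 to 0.06 for Trim47 and -0.10 to 0.09 for Trim24. For the interaction they were -0.03 to 0.25 for Trim68 and -0.01 to 0.45 for Trim46, and for LPS with siControl -0.00 to 0.33 for Trim6 and -0.14 to 0.40 for Trim34b. The cause of these changes was not tested.

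Of 14 members called at rest 12 kept the call under every alternative, as did 5 of 6 in the interaction test. Between siRNAs, correlations of same-numbered deviations ran from -0.30 to 0.20, and between states with siControl they were 0.01, -0.02 and -0.18, not every library correlated best with its own number, and the libraries of these comparisons shared only a number. In LPS-treated against resting siEhd1 cells, where the same-numbered correlations were all positive, the replicate block over all libraries changed no member's call. Over all genes the block moved the interaction calls from 379 higher and 356 lower to 287 and 232. Depth limits Trim6, Trim30b, Trim34b, Trim46 and Trim66.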
